A study of Mus musculus with 2 samples.

Results

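The genes described here are *Il15* and 7 other genes of secreted muscle factors and their receptor: *Il15ra*, *Fndc5*, *Metrnl*, *Ostn*, *Bdnf*, *Fgf21* and *Apln*. They were taken by gene symbol, 8 of 32285 genes in both count tables. The set was drawn up with the low *Il15* count of one library already known, so the *Il15* ratio between the libraries is given as a description. Male C57BL/6 mice were 6 weeks old, and nuclei from both tibialis anterior (TA) muscles of 2 mice per genotype went into 1 pooled library. The library labelled KO was from M-*Bcl6* KO mice (*Myf6*-Cre+, *Bcl6* fl/fl), in which Cre made under *Myf6*, a gene of muscle fibres, removes internal exons of *Bcl6*. The library labelled WT was from littermates (*Myf6*-Cre+, *Bcl6* wt/wt), so both libraries carried Cre. Each genotype has 1 library and no replicate, so no test was run between genotypes, and mouse and library cannot be told apart from genotype. Each RNA molecule was counted once by its unique molecular identifier (UMI). The library labelled WT held 11974138 UMIs in 3798 barcodes and the library labelled KO held 12026013 in 4096. Levels are UMIs summed over the nuclei of a class, per 1000000 UMIs of that class (CPM), and all intervals are 95% intervals for counting error only. The intervals of levels and ratios take each UMI as independent, so they are too narrow where UMIs cluster within nuclei.

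Myokines are proteins that muscle fibres release and that act on other tissues or on the fibre itself. Interleukin-15, the product of *Il15*, is bound by the receptor chain of *Il15ra* in the cell that makes it and presented from there to cells bearing the shared β and γ chains, such as natural killer and memory T cells. *Bdnf* encodes a neurotrophin, *Fndc5* the precursor of irisin, *Metrnl* meteorin-like, *Ostn* osteocrin (musclin), *Fgf21* a stress-induced endocrine growth factor and *Apln* the peptide apelin. RNA counted in nuclei is a measure of transcript in the nucleus, not of secreted protein.

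*Bcl6*, the gene targeted by Cre, was read first. It was higher in myonuclei of the library labelled KO, at 502 CPM (4843 UMIs), than in the library labelled WT, at 168 CPM (1485 UMIs), a log2 ratio of 1.58 with an interval from 1.497 to 1.67. The direction is against a loss of transcript. Counts per gene do not show which exons were read, and RNA tags outside the removed exons cannot check the label. The libraries are therefore called by their labels throughout.

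Of the barcodes, 3674 and 3944 nuclei were kept, and 6 barcode sequences occurred in both libraries. Myonuclei, defined by clusters with high levels of 10 muscle fibre genes such as *Ttn* and *Ryr1*, numbered 2413 nuclei in the library labelled WT and 3089 nuclei in the library labelled KO, with median depths of 3128 and 2714 UMIs. They were split by the myosin heavy chain gene with most UMIs into type IIb (*Myh4*, 704 and 611 nuclei), IIx (*Myh1*, 1160 and 1176), IIa (*Myh2*, 234 and 482) and I (*Myh7*, 2 and 19). Nuclei with no *Myh* UMI or a tie were 313 and 801. The other classes were fibro-adipogenic progenitor (FAP)-like, endothelial-like, muscle stem cell (MuSC)-like, pericyte- or smooth muscle-like, macrophage-like and tenocyte-like nuclei, each named from its markers. A further 53 and 38 nuclei were left unnamed.

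*Il15* lies on chromosome 8 (GRCm38, chr8:82331632-82403222, minus strand), and exons make up 3.16% of its span. The library labelled WT held 499 *Il15* UMIs in myonuclei and the library labelled KO held 101. These are levels of 56.3 CPM and 10.5 CPM, 5.38-fold lower in the library labelled KO, with a log2 ratio of −2.43 and an interval from −2.75 to −2.12. The median ratio was −0.15 over the 6987 genes that reached 200 UMIs there, and measured from it *Il15* stood at −2.28. Only 9 of those genes had a lower ratio, *Il15* being in place 10 from the lowest. By a 2-fold rule, 2.71% of the 6987 genes were lower and 3.06% were higher in the library labelled KO. Of the 8 myokine genes, 3 had enough UMIs for that rule (*Il15*, *Il15ra* and *Bdnf*), of which 1 was lower and 0 were higher. The percentages depend on scaling, since 214 genes were higher and 189 lower by CPM and 261 were higher and 138 lower with TMM factors.

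The lower level of *Il15* was seen in each main fibre class. In type IIx nuclei it was 87.9 CPM (399 UMIs) in the library labelled WT and 18.1 CPM (73 UMIs) in the library labelled KO, a log2 ratio of −2.28 with an interval from −2.66 to −1.92. The background for this class was 2.67% of genes lower. In type IIa nuclei it was 42.8 CPM (37 UMIs) and 11.97 CPM (20 UMIs), a log2 ratio of −1.84 with an interval from −2.70 to −1.02. In type IIb nuclei it was 22.0 CPM (55 UMIs) and 1.16 CPM (2 UMIs), a log2 ratio of −4.25 with a wide interval from −7.34 to −2.33. Those UMIs were in 32 and 2 nuclei. Types IIa and IIb had fewer than 200 *Il15* UMIs and take no call. In nuclei without a main *Myh* gene the levels were 8.34 and 2.79 CPM, on 8 and 6 UMIs, and their interval included no difference. Both libraries had *Il15* at 0 UMIs in the neuromuscular junction (NMJ)-like and myotendinous junction (MTJ)-like clusters, which held 15 and 8 and 13 and 8 nuclei. The upper limits of those zeros were 73.2 and 169.5 CPM in NMJ-like and 69.1 and 113.4 CPM in MTJ-like nuclei. They are above the levels over all myonuclei, 56.3 and 10.5 CPM, so the zeros do not set these clusters below that average. In the library labelled WT both limits are below the IIx level of 87.9 CPM. In the library labelled KO both are above the IIx level of 18.1 CPM. The libraries also differed in their mix of fibre classes. With the classes weighted equally the log2 ratio in myonuclei was −2.24.

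**Figure D1:**
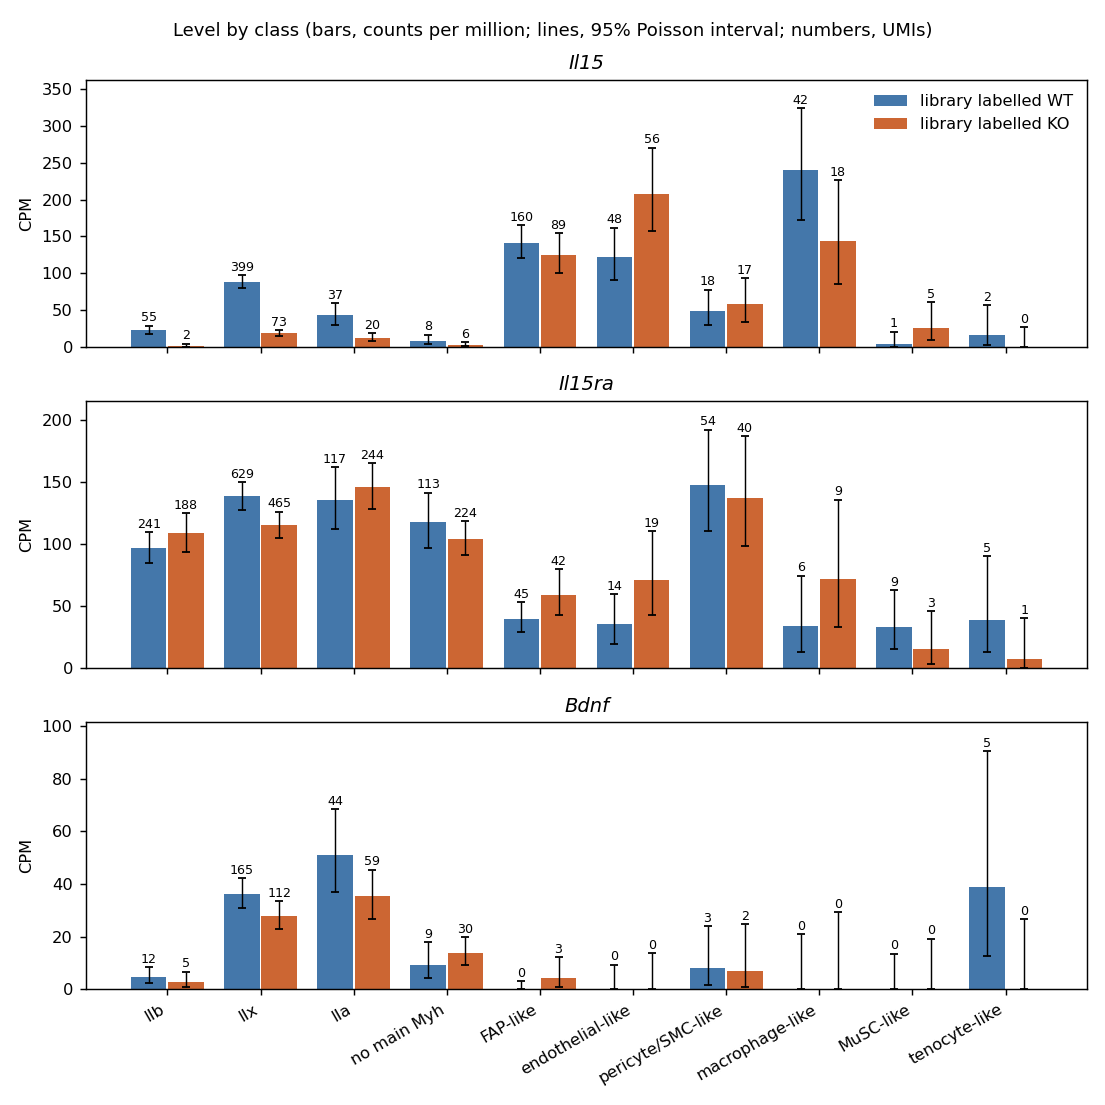
Level of *Il15*, *Il15ra* and *Bdnf* in CPM (y axis) by nuclear class (x axis) in the library labelled WT (blue) and the library labelled KO (orange). Bars are levels, lines are 95% Poisson intervals and the number above each bar is its UMI count. *Il15* bars of the IIx class stand at 87.9 and 18.1 CPM, while those of the FAP-like class stand at 141 and 125 CPM.

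*Il15* levels differed by fibre class within each library. In the library labelled WT, type IIx was above IIb by 3.99-fold, with an interval from 3.001 to 5.39, and in the library labelled KO by 15.7-fold, with an interval from 4.18 to 132. *Il15* and *Bdnf* were the 2 of 3 genes with enough UMIs that were 2-fold or more higher in IIx than IIb in both libraries, where 5.05% of 5995 genes were. Both reached 200 UMIs through their IIx nuclei, so that count is a description. Type IIa was below IIx, at 0.487 of its level with an interval from 0.338 to 0.683 in the library labelled WT, and at 0.662 of it with an interval from 0.382 to 1.10 in the library labelled KO. Type IIa was above IIb, by 0.96 on the log2 scale with an interval from 0.32 to 1.585 in the library labelled WT, and by 3.37 with an interval from 1.33 to 6.51 in the library labelled KO. The order IIx, IIa, IIb held in both libraries, but IIx and IIa did not differ beyond counting error in the library labelled KO.

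The share of *Myh4* among the *Myh* UMIs of a nucleus gave a finer view, in nuclei with at least 3 such UMIs. In the library labelled WT, *Il15* stood at 81.5 CPM without *Myh4*, 95.8 CPM with some *Myh4* but under 50%, 37.8 CPM from 50% to under 100% and 14.9 CPM with *Myh4* alone. In the library labelled KO the levels were 17.6, 18.6, 0 and 1.08 CPM, and the 0 stands on 79 nuclei with 250029 UMIs. In both libraries the 2 groups with the least *Myh4* were the highest.

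**Figure D2:**
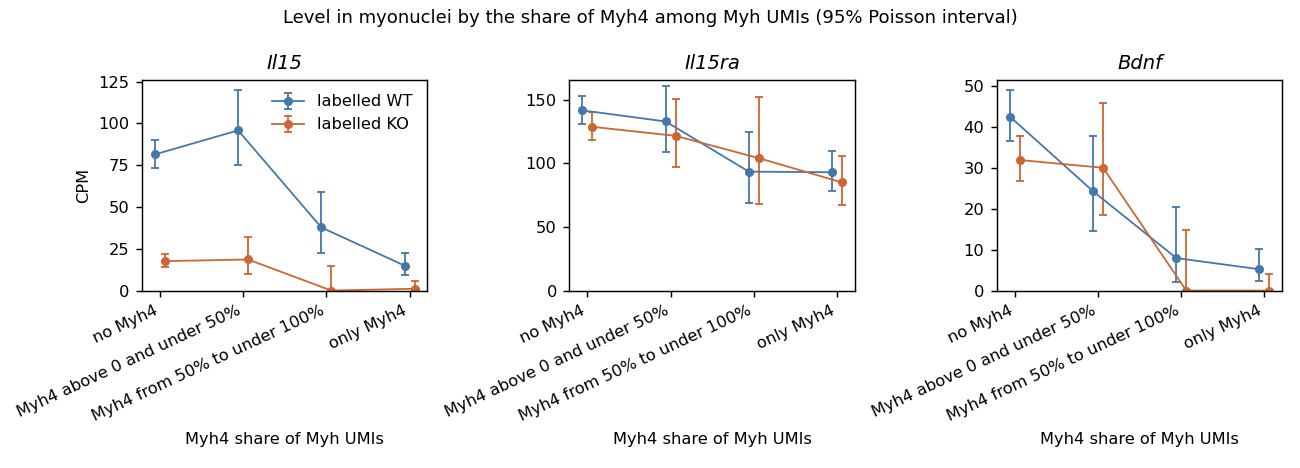
Level of *Il15*, *Il15ra* and *Bdnf* in CPM (y axis) in myonuclei grouped by the share of *Myh4* among *Myh* UMIs (x axis), in the library labelled WT (blue) and KO (orange). Points are levels with 95% Poisson intervals. *Il15* and *Bdnf* fall toward nuclei with *Myh4* alone, and *Il15ra* falls from 142 to 92.9 CPM in the library labelled WT.

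Outside the fibres the *Il15* ratio varied by class. In FAP-like nuclei, which build the connective tissue of muscle, it was 141 CPM (160 UMIs) in the library labelled WT and 125 CPM (89 UMIs) in the library labelled KO, a log2 ratio of −0.17 with an interval from −0.56 to 0.21. FAP-like nuclei had enough UMIs for the 2-fold rule, which *Il15* did not pass and which 0.551% of 1995 genes passed as lower. In endothelial-like nuclei it was higher in the library labelled KO, at 208 CPM (56 UMIs), than in the library labelled WT, at 122 CPM (48 UMIs), a log2 ratio of 0.77 with an interval from 0.19 to 1.36. In macrophage-like nuclei it was 240 CPM (42 UMIs) and 143 CPM (18 UMIs), with an interval of the log2 ratio from −1.63 to 0.08. In pericyte- or smooth muscle-like nuclei it was 49.2 and 58.4 CPM, on 18 and 17 UMIs. MuSC-like nuclei held 1 and 5 UMIs and tenocyte-like nuclei 2 and 0, so that their levels could not be compared. The unnamed nuclei stood at 91.6 and 68.3 CPM, on 9 and 6 UMIs. Myonuclei held 64.1% of all kept *Il15* UMIs in the library labelled WT, with an interval from 60.6 to 67.4%, and 34.6% in the library labelled KO, with an interval from 29.1 to 40.3%.

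The highest *Il15* levels were in macrophage-like, FAP-like and endothelial-like nuclei in both libraries, in different orders. In the library labelled WT macrophage-like nuclei stood above FAP-like ones beyond counting error, and FAP-like and endothelial-like nuclei did not differ beyond it. In the library labelled KO no 2 neighbours among these 3 differed beyond counting error. There the interval of endothelial-like nuclei, 157.4 to 270.7 CPM, lay above that of FAP-like nuclei, 100.6 to 154.2 CPM. Whether the difference between endothelial-like nuclei and myonuclei is larger than between mice was not tested.

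**Figure D3:**
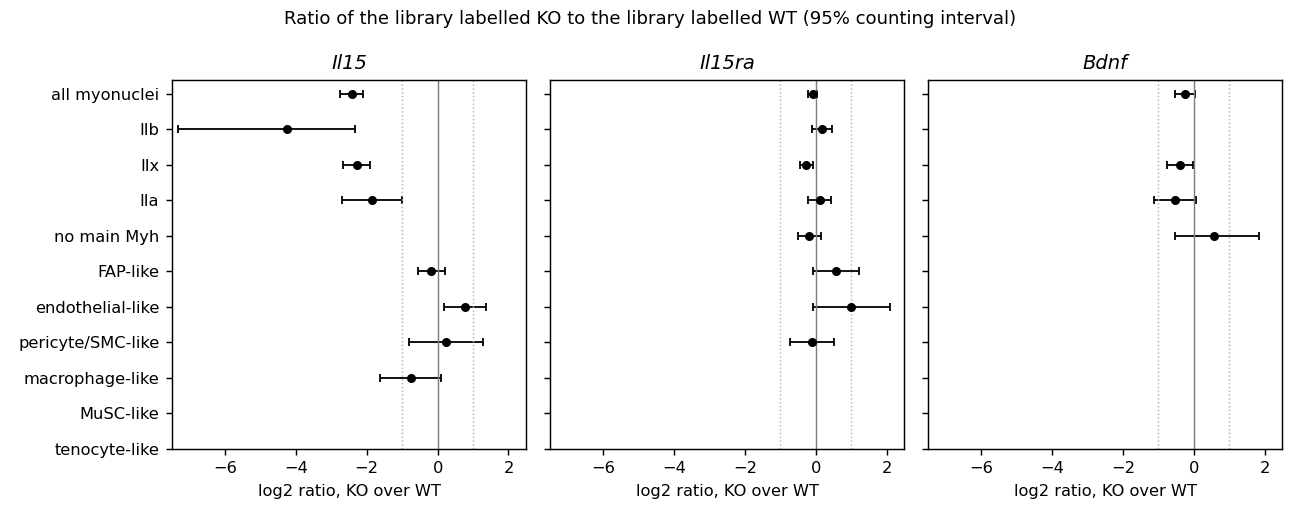
Log2 ratio of the library labelled KO to the library labelled WT (x axis) for *Il15*, *Il15ra* and *Bdnf* in each class (y axis), with 95% counting intervals. Classes with fewer than 20 UMIs, or with none in one library, are left blank, and dotted lines mark 2-fold. The *Il15* points of myonuclei lie at −2.43 and of FAP-like nuclei at −0.17.

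Markers of other cell types were measured in myonuclei, since free RNA in droplets can carry them. The 8 macrophage markers summed to 27.3 CPM in the library labelled WT and 29.0 CPM in the library labelled KO, against 7191 and 9158 CPM in macrophage-like nuclei. Of them 7 and 8 were detected, *Mrc1* was the most abundant at 24.6 and 23.6 CPM, and *C1qa* was at 0 in the library labelled WT. The 8 FAP markers summed to 30.1 and 25.4 CPM, all detected, with *Dcn* the most abundant, and the 8 endothelial markers to 17.8 and 16.5 CPM, all detected, with *Tek* the most abundant. The 8 pericyte or smooth muscle markers summed to 298 and 254 CPM, of which *Abcc9* alone gave 283 and 237 CPM. The part of free RNA in the *Il15* ratio between the libraries was not tested. In the other direction, the 10 muscle fibre genes summed to 1613 and 3994 CPM in FAP-like, 2673 and 5936 CPM in macrophage-like and 2942 and 2911 CPM in endothelial-like nuclei, with *Ttn* the most abundant, against 97423 and 113609 CPM in myonuclei. The part of that RNA in the *Il15* and *Metrnl* levels of FAP-like and macrophage-like nuclei was not tested.

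Shares of nuclei with at least 1 UMI were compared after each nucleus was thinned to 1000 UMIs. *Il15* was found in 4.27% of 2387 myonuclei of the library labelled WT, with an interval from 3.50 to 5.16%, and in 0.763% of 3014 of the library labelled KO, with an interval from 0.484 to 1.14%. Without thinning the shares were 13.4 and 2.59%. By class the shares in the library labelled WT were 1.72% in type IIb nuclei with an interval from 0.891 to 2.98%, 7.13% in IIx with an interval from 5.71 to 8.77% and 3.03% in IIa with an interval from 1.23 to 6.14%. Those of the library labelled KO were 0.169% in IIb, 1.37% in IIx and 0.840% in IIa nuclei. MuSC-like nuclei, a class chosen after its low values were seen and not known to lack *Il15*, are set beside them at a median depth of 1254 and 1312 UMIs. They gave 0 of 121 nuclei, which allows a share of up to 2.48% by a limit of 3 counts and of 3.003% by the Clopper-Pearson interval, and 2 of 87 nuclei, or 2.30% with an interval from 0.280 to 8.06%. The interval of IIx in the library labelled WT lay above the MuSC-like interval of that library, and the intervals of the other 5 shares overlapped that of their own library. By level IIa of the library labelled WT also lay above, at 42.8 CPM with an interval from 30.1 to 59.0 CPM against 3.67 CPM with an interval from 0.0928 to 20.4 CPM. No background share is read from these values, and the part of free RNA in the levels of *Il15* was not tested. Thinning left out 26 and 75 myonuclei.

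*Il15ra* encodes the α chain of the interleukin-15 receptor. It lies on chromosome 2 (GRCm38, chr2:11705290-11734317, plus strand), and exons make up 15.3% of its span. RefSeq gives it 2 start sites. *Bdnf* lies on the same chromosome (chr2:109674700-109727007, plus strand) with 7 RefSeq start sites. BCL6 is a repressor that binds DNA, and the letters TTCNNNGAA, which STAT factors share, are part of its known site. Promoter sequence of 300 bases around each start (RefSeq, GRCm38.p6) was searched on both strands for TTCNNNGAA, the cAMP response element TGACGTCA, the estrogen-related receptor element TCAAGGTCA and the amino acid response element TGATGNAA. They are in 8.3, 1.79, 0.423 and 3.97% of 32851 promoters of that length. Promoters of 6 of the 8 genes were matched, 13 in all, and 3 of them held a match. Those of *Il15* and *Ostn* were not matched and so not searched. Both promoters of *Il15ra*, a gene with enough UMIs to compare, are shown, and of the 7 of *Bdnf* the 1 that held TTCNNNGAA, with letters of a match in capitals:
*Il15ra*, chr2:11705043-11705342: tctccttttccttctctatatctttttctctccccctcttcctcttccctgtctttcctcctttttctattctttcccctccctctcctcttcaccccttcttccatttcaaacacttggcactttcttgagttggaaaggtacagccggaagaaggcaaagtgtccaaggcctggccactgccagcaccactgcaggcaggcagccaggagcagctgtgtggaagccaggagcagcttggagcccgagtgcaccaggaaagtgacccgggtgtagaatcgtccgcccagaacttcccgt
*Il15ra*, chr2:11705462-11705761: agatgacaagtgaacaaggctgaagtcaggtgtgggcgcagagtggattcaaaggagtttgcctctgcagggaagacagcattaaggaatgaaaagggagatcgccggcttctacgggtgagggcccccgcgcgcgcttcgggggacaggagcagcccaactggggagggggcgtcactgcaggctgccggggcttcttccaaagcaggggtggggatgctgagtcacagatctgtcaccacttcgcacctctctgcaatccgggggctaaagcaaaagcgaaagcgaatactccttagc
*Bdnf*, chr2:109674450-109674749: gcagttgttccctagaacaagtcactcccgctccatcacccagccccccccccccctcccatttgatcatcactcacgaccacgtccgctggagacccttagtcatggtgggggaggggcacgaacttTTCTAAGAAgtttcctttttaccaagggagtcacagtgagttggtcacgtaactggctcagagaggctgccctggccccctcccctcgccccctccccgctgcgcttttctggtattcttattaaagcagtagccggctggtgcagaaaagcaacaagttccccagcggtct
*Il15ra* held none of the letters in either window. The *Bdnf* promoter shown held TTCTAAGAA, a match of TTCNNNGAA, and was picked for it. Of the other *Bdnf* promoters 1 held TGATGNAA and 5 held none of the letters. A match describes letters in this window only.

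The *Il15ra* level in myonuclei did not differ between the libraries beyond counting error. It stood at 124 CPM (1100 UMIs) in the library labelled WT and 117 CPM (1127 UMIs) in the library labelled KO, a log2 ratio of −0.09 with an interval from −0.21 to 0.03, and of 0.03 with TMM or median-of-ratios scaling. By fibre class the levels in the library labelled WT were 96.6 CPM in IIb, 139 CPM in IIx and 135 CPM in IIa. In the library labelled KO they were 109, 115 and 146 CPM. The log2 ratio in IIx nuclei was −0.27, with an interval from −0.44 to −0.09, and the intervals of IIb and IIa included 0. The gene was found in NMJ-like nuclei, at 317 CPM (16 UMIs) and 230 CPM (5 UMIs).

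Outside the fibres *Il15ra* was highest in pericyte- or smooth muscle-like nuclei, at 148 CPM (54 UMIs) and 138 CPM (40 UMIs). FAP-like nuclei held 39.7 and 59.1 CPM and endothelial-like nuclei 35.6 and 70.7 CPM. Nuclei with *Il15* and *Il15ra* together were 145 of 2413 myonuclei in the library labelled WT, against 130.3 expected from the separate shares at matched depth, and 25 of 3089 against 26.3 in the library labelled KO. Within main *Myh* class the expected numbers were 138.9 and 27.1. Both observed counts had Poisson intervals that held the expected number, at 122.4 to 170.6 and 16.2 to 36.9.

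*Bdnf* UMIs lay mostly in type IIx and IIa nuclei. In myonuclei it stood at 26.0 CPM (230 UMIs) in the library labelled WT and 21.8 CPM (210 UMIs) in the library labelled KO, a log2 ratio of −0.25 with an interval from −0.53 to 0.02. In type IIb nuclei it was 4.81 and 2.89 CPM, in IIx 36.3 and 27.8 CPM and in IIa 50.9 and 35.3 CPM. The log2 ratio in IIx nuclei was −0.39, with an interval from −0.75 to −0.03, and the intervals of IIb and IIa included 0. The 165 and 112 *Bdnf* UMIs of IIx lay in 110 and 77 nuclei, so the IIx interval is too narrow. IIx was above IIb by 7.56-fold, with an interval from 4.21 to 14.9, and by 9.61-fold, with an interval from 4.00 to 30.2. IIa was above IIb by 10.6 and 12.2-fold, on 120 UMIs, which is too few for the 2-fold rule, and that rule was passed as higher by 6.88% of 4330 genes. IIa and IIx did not differ beyond counting error in either library, but the log2 ratio of IIa to IIx in the library labelled KO was 1.13 in place of 0.35 when nuclei were thinned to 1000 UMIs. Myonuclei held 95.8 and 96.8% of the *Bdnf* UMIs. Type I nuclei of the library labelled KO held 4 UMIs in 2 nuclei. In tenocyte-like nuclei the library labelled WT had 5 UMIs in 3 nuclei, a level of 38.8 CPM with an interval from 12.6 to 90.6 CPM that did not differ from IIx beyond counting error, and the library labelled KO had 0. Pericyte- or smooth muscle-like nuclei held 3 and 2 UMIs, FAP-like nuclei 0 and 3, and endothelial-like, MuSC-like and macrophage-like nuclei 0 in both. *Bdnf* overlaps an antisense gene, Gm45346, over 1892 bases, and whether counting used strand is not given in the sources used here. Without strand, reads there could not be told apart from those of that gene.

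*Bdnf* UMIs lay mostly in 2 myonuclear clusters. In cluster 0, led by *Ppara* and *Myoz2*, it was 35.3 and 43.6 CPM, a log2 ratio of 0.31 with an interval from −0.07 to 0.69. In cluster 1, led by *Myh7* and *Atf3*, it was 50.9 and 22.8 CPM, a log2 ratio of −1.16 with an interval from −1.63 to −0.70, on 111 and 62 UMIs, too few for the 2-fold rule. Clusters 2, 3 and 5 held 2 to 11 *Bdnf* UMIs per library, with ratios of 0.43, −0.55 and 0.88 whose intervals included 0. *Il15* was lower in clusters 0, 1 and 5, at −2.98, −2.13 and −2.17, in cluster 5 on 39 and 13 UMIs. In cluster 2, led by *Myh4* and *Mirg*, *Il15* was at 6.41 and 1.44 CPM. In cluster 3, led by *Gpt2* and *Actn3*, it was at 2.3 and 0.786 CPM. The ratios of clusters 2 and 3 were −2.15 and −1.55, on 1 to 6 UMIs per library, with intervals that included 0. Clusters 2 and 3 held 6 and 4 *Il15* UMIs in the library labelled WT. Most of the 55 *Il15* UMIs of its type IIb nuclei therefore lay in other clusters.

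*Metrnl* was found outside fibres more than inside. Macrophage-like nuclei held 131 CPM (23 UMIs) in the library labelled WT and 95.5 CPM (12 UMIs) in the library labelled KO, and FAP-like nuclei 23.8 CPM (27 UMIs) and 14.1 CPM (10 UMIs). Myonuclei held 9 and 10 UMIs, and the unnamed nuclei 4 and 1 UMIs. The intervals of the ratio between libraries included no difference in macrophage-like and in FAP-like nuclei. *Metrnl* was in 12.5% of 64 thinned macrophage-like nuclei of the library labelled WT, with an interval from 5.55 to 23.15%. In thinned myonuclei of that library it was in 0.0838% of 2387. The corresponding shares in the library labelled KO were 6.52% of 46, with an interval from 1.37 to 17.9%, and 0.0332% of 3014. Thinning to 1000 UMIs left out 33 and 15 macrophage-like nuclei. Thinned to 500 UMIs, which left out 0 nuclei, the macrophage-like shares were 4.12% of 97 and 1.64% of 61.

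*Fndc5* was rare, and among type IIb, IIx and IIa nuclei its level was highest in IIa. It had 26 and 29 UMIs in myonuclei, at 12.7 and 8.38 CPM in IIa, 2.42 and 2.48 CPM in IIx and 1.20 and 0.578 CPM in IIb. IIa was above IIx by 5.25-fold, with an interval from 2.07 to 13.4, and by 3.38-fold, with an interval from 1.40 to 8.51. These rest on 11 and 14 UMIs in IIa nuclei. MuSC-like nuclei held 7.33 and 10.4 CPM, on 2 UMIs in each library, and did not differ from IIa beyond counting error. Other non-muscle classes held 0 or 1 UMI.

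*Ostn*, *Apln* and *Fgf21* were at the edge of detection. The library labelled WT held 9 *Ostn* UMIs, all in 3 nuclei of the MTJ-like cluster, of which 7 were in the 1 nucleus of type IIb. The library labelled KO held 1 *Ostn* UMI, in a type I nucleus. The log2 ratio of *Ostn* in myonuclei was −3.29, with an interval from −8.75 to −0.44. That interval takes each UMI as independent, and these UMIs came from so few nuclei that it is too narrow. *Ostn* overlaps an antisense gene, Gm32312, so its reads carry the same limit as those of *Bdnf*. *Apln* had 3 UMIs in 1 endothelial-like nucleus of the library labelled WT and none in the library labelled KO. *Fgf21* had 0 UMIs in both libraries, which by the limit of 3 counts allows a level of up to 0.263 CPM in the library labelled WT and 0.262 CPM in the library labelled KO. The upper Poisson bounds are 0.323 and 0.322 CPM. Differences between the libraries for *Apln* and *Fgf21* were not detectable at this depth.

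Of 30 other secreted muscle factors, 29 were in the count tables, and 9 of these had enough UMIs in myonuclei. Of the 9, 2 were 2-fold or more higher and 0 lower in the library labelled KO. Over all genes tested 3.06% were higher and 2.71% lower. The median log2 ratio of the 9 was 0.08 against −0.15 over all genes. *Nrg4*, a neuregulin, was at 7.56 CPM in the library labelled WT and 20.8 CPM in the library labelled KO, a log2 ratio of 1.46 with an interval from 1.06 to 1.88. *Angptl4*, an inhibitor of lipoprotein lipase, was at 7.79 and 20.2 CPM, a log2 ratio of 1.37 with an interval from 0.97 to 1.79. Both genes reached 200 UMIs through the library labelled KO, with 67 and 201 *Nrg4* and 69 and 195 *Angptl4* UMIs, so nothing is read from their share of the list. *Vegfa* stood at 0.37, *Fgf2* at −0.04, *Tgfb2* at −0.07 and *Mstn*, which limits muscle growth, at −0.19. By fibre class *Mstn* was at 38.1 and 15.6 CPM in IIb, 10.8 and 19.3 CPM in IIx and 5.79 and 14.4 CPM in IIa, so the classes did not share a direction.

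Of 24 receptors and partners of the myokines, 11 had enough UMIs, 0 were higher and 1 was lower, against the same 3.06 and 2.71% of all genes. Their median was −0.16, and −0.47 with the fibre classes weighted equally. *Itgb5*, an integrin β chain that pairs with *Itgav* and is a receptor described for irisin, was at 110 CPM in the library labelled WT and 42.2 CPM in the library labelled KO, a log2 ratio of −1.38 with an interval from −1.55 to −1.21. *Itgav* was at 0.15. *Ece1* was at 0.23, *Jak1*, a kinase of interleukin receptors, at 0.14, *Fgfr1* at −0.62 and *Sort1* at −0.64. By fibre class *Sort1* was at 82.6 and 41.0 CPM in IIb, 21.1 and 21.1 CPM in IIx and 10.4 and 17.4 CPM in IIa. Some receptors lay in other cell classes, and these were chosen after their values were seen. *Ntrk2*, the *Bdnf* receptor, was at 176 and 173 CPM in FAP-like nuclei, and *Aplnr*, the apelin receptor, at 112 and 93.1 CPM in endothelial-like nuclei. *Npr3*, which clears natriuretic peptides and binds osteocrin, was at 82.2 and 56.8 CPM in type IIa nuclei and 6.41 and 1.73 CPM in IIb.

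Of 14 regulators named for these genes, 10 had enough UMIs, of which 1 was higher and 0 lower, with a median of 0.06, against 3.06 and 2.71% of all genes. *Ppargc1a*, a coactivator of mitochondrial genes known to raise *Fndc5*, was at 676 CPM in the library labelled WT and 2179 CPM in the library labelled KO, a log2 ratio of 1.69 with an interval from 1.65 to 1.73. *Fndc5* in the same nuclei stood at 2.93 and 3.003 CPM, on 26 and 29 UMIs. Its log2 ratio was 0.03, with a wide interval from −0.78 to 0.86, and a link between the 2 genes was not tested. *Ddit3* was at 0.37, *Atf4* at 0.24, *Creb1* at −0.14 and *Mef2c* at −0.63.

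**Figure D4:**
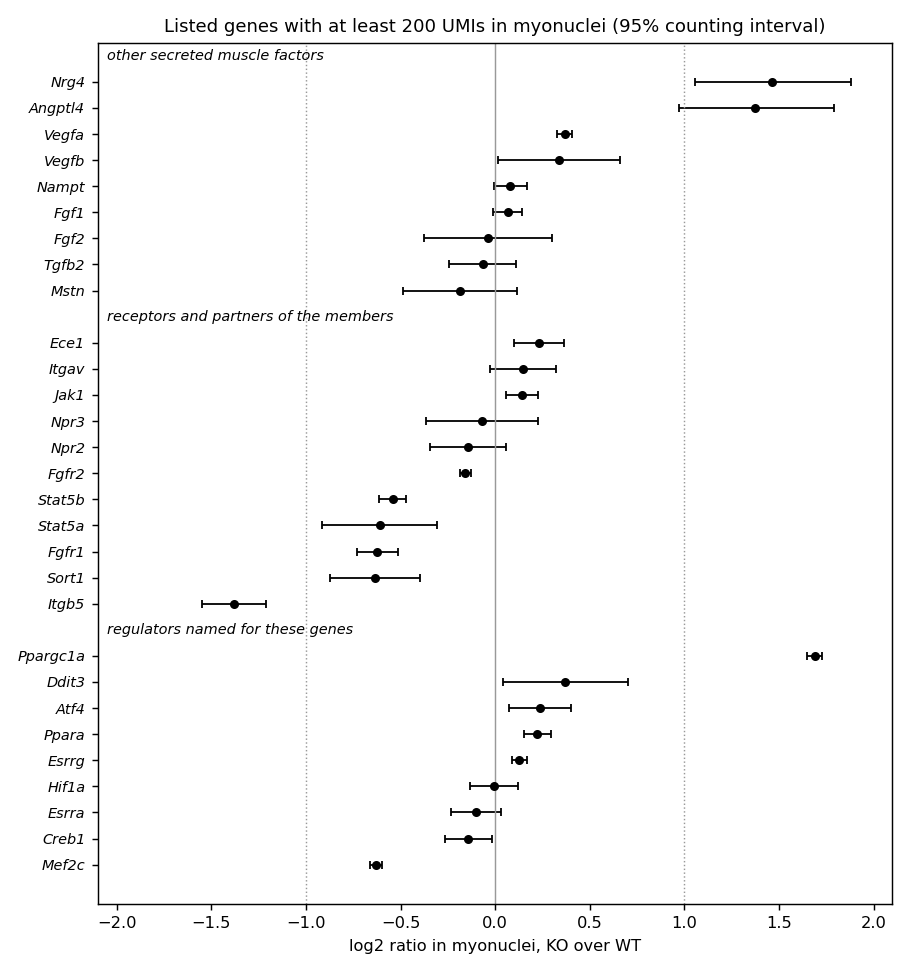
Log2 ratio of the library labelled KO to the library labelled WT in myonuclei (x axis) for listed genes with at least 200 UMIs (y axis), grouped by list, with 95% counting intervals. Dotted lines mark 2-fold. *Nrg4*, *Angptl4* and *Ppargc1a* lie to the right of 1 and *Itgb5* lies at −1.38.

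The genes with the profile most like each myokine were ranked by Pearson correlation of log2(CPM + 10) over 10 classes in 2 libraries, among 8647 genes. *Il15* was most like *Dusp22* (0.88), *Entpd1* (0.86), *Calcrl* (0.86), *Sp100* (0.85) and *Mndal* (0.84). *Il15ra* was most like *Trp53inp2* (0.93), *Stim1* (0.86), *Pcmtd2* (0.85), *Art3* (0.84) and *Ybx2* (0.84). *Bdnf* was most like *Gnpat* (0.88), *Mtx3* (0.87), Gm19689 (0.86), 2310030G06Rik (0.86) and *Mfn2* (0.86). The 20 values share their library and depth, and with a pseudocount of 1 CPM 2, 4 and 4 of the 5 genes were kept.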

How the data were processed

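Nuclei were sorted and profiled by single-nucleus RNA sequencing, in 1 library per genotype. The files the authors deposited hold raw UMI counts, whole numbers with no normalization, made with Cell Ranger 7.0.0 against mm10, with Seurat 5.0.3 also named in the submitters' processing notes. The study's methods name a 3′ gene expression kit and the labels name a multiome kit, which the counts do not settle. The counting of intronic reads is not given in the sources used here.

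Nuclei were kept with 200 to 5000 genes and at most 5% mitochondrial UMIs. Scrublet (scanpy 1.11.5) scored doublets, and 0.8% of nuclei per 1000 barcodes were taken out from the top of the scores (115 and 134 nuclei), because its own threshold marked 7 and 2. Seurat 5.3.0 in R 4.3.3 clustered the nuclei (2000 variable genes, 30 components, RPCA integration, resolution 0.5) without 379 genes, the myokine genes and those that differed 2-fold between libraries. Classes were named from marker lists by score. Intervals are exact, given the summed UMIs for ratios, Poisson for levels and Clopper-Pearson for shares, in Python 3.11.15 with scipy 1.17.1. A gene was called when 2-fold or more apart with at least 200 UMIs. The rule for named list genes takes the 3 highest and 3 lowest ratios of each list and any gene past 2-fold. The value of 1 gene that this rule names is neither reported nor plotted here. Coordinates are from GENCODE M21, which holds 32158 of 32285 identifiers, and edgeR 4.0.16 gave TMM factors. No edgeR test was run.

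The members and lists were chosen with earlier results of these data known. In simulated data for the KO over WT comparison in myonuclei (6987 genes, 200 changed), the interval held the true ratio in 95.3% of unchanged and 96.0% of changed genes. The simulated counts were independent Poisson draws, the setting that the interval assumes, so these shares check the calculation only. Clustering of UMIs within nuclei and differences between mice were not simulated. Alternatives were the assignment of nuclei, doublets, mitochondrial limit, minimum genes, scaling, weight of nuclei, thinning, fibre mix, minimum UMIs and pseudocount. The grouping by *Myh4* share and depth bins within *Myh* class were added after seeing the data.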

Additional observations from a re-analysis of the deposited data

Results flagged for a closer look

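*Il15* differed between the libraries in opposite directions in 2 kinds of nuclei. The log2 ratio of the library labelled KO to the library labelled WT was 0.77 in endothelial-like nuclei and below 0 in type IIb, IIx and IIa nuclei. The difference was not tested, since there was 1 library per genotype. The endothelial-like ratio rests on 48 and 56 UMIs.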

How the results depend on the processing

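Of 476 alternative values for 56 results, 442 kept their value within the counting interval or the count within 1.5 times, 34 moved further, and no ratio of 2-fold or more changed sign. Smaller ratios did so in 6 values for 4 results. *Il15ra* in myonuclei was 0.03 with TMM and with median-of-ratios scaling and 0.0042 over all kept nuclei in place of −0.09, *Il15ra* in type IIb was −0.13 in place of 0.17 when a main *Myh* gene needed 90% of the *Myh* UMIs, the median of the other secreted factors was −0.04 in place of 0.08 over all kept nuclei, and *Il15* in pericyte- or smooth muscle-like nuclei was −0.05 in place of 0.25 without doublet removal. *Il15* in myonuclei ranged from −2.62 to −2.24 under all settings but 1, the use of all kept nuclei, where it was −1.42, since that adds the other classes. Thinning to 1000 UMIs left too few UMIs for the 2-fold rule, so the count of myokine genes lower in the library labelled KO was 0 in place of 1 and the count higher in IIx than IIb was 0 in place of 2. With at least 50 UMIs, the count higher in IIa than IIb in both libraries was 1 in place of 0. TMM and median-of-ratios scaling shifted the myonuclear ratios by 0.12 on the log2 scale. Of the other secreted factors, 0 in place of 2 were higher when thinned, and with at least 50 UMIs 3 in place of 2 were higher and 1 in place of 0 was lower. The median of the receptors and partners, −0.16, ranged from −0.47 with the fibre classes weighted equally to −0.03 when thinned, and moved in 5 of 11 alternatives. No paired analysis was possible because each group is 1 library. Depth limits *Ostn*, *Apln*, *Fgf21* and, in type IIb nuclei, *Il15*, and no value carries an error between mice.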
